A study of Mus musculus with 46 samples.

Results

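Myl7, Myl4 and Sln are 3 genes whose transcripts mark the atria in the adult mouse heart, and their levels were followed here through 46 arrays of left ventricle. A probe set was taken as a member if the platform's annotation gave it exactly 1 of these symbols, which held for 5 of 22626 probe sets (1 for Myl7, 2 for Myl4 and 2 for Sln). The genes were chosen with their values over region, day and strain in view, so their levels and differences are given as a description, with no test. The mice were males of the strains C57BL/6J (C57 below) and MRL/MpJ (MRL below), 15 to 20 weeks old, and were either left without surgery (day 0) or studied 1 or 5 days after the left coronary artery was tied off below the left atrial appendage. The labels name no transgene. From each heart 2 pieces were frozen: the infarct with its border, cut out with a biopsy punch, and the noninfarct rest of the left ventricle; at day 0 "infarct" names the matching front and apical part of an unoperated heart. RNA of each piece went to 1 array, with 4 arrays in each of the 12 groups of strain, day and region except the C57 day 0 groups, which had 3. The labels call the arrays of a group biological replicates and leave unsaid which arrays of the 2 regions came from 1 heart.

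The myosin molecule carries 2 kinds of light chain on its neck, an essential and a regulatory one, and heart chambers use different genes for them. Myl7 encodes the atrial regulatory light chain and Myl4 the atrial essential light chain, where the adult ventricle uses Myl2 and Myl3. Sln encodes sarcolipin, a small membrane protein that binds the calcium pump of the sarcoplasmic reticulum (Atp2a2) and lowers its activity; in the ventricle that role is mainly played by phospholamban (Pln). In rodents sarcolipin RNA is abundant in atria and scarce in ventricle, and Myl4 is also made by ventricular muscle before birth.

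The promoters of the light chain genes, from 250 bases before to 50 bases after the start annotated by RefSeq, are shown because the levels of the members moved together across arrays. Both genes lie on chromosome 11 of the GRCm38.p6 build, Myl7 on the minus strand at chr11:5898733-5899032 and Myl4 on the plus strand at chr11:104550413-104550712. Capitals mark matches to the motifs named after them.
Myl7: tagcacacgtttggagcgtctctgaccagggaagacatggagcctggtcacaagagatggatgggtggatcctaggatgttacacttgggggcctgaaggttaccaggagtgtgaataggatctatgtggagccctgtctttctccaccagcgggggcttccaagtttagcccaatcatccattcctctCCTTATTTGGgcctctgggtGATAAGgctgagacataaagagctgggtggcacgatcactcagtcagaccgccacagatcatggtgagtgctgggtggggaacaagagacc
Myl4: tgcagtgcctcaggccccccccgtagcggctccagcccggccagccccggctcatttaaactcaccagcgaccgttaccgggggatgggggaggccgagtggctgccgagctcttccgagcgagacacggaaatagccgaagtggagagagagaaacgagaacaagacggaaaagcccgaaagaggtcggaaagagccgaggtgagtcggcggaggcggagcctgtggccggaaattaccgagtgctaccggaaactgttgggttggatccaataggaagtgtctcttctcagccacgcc
Of 4 motifs searched on both strands (the GATA site GATAAG, the T-box half-site AGGTGT, the CArG box and the MEF2 site, each motif separately), the Myl7 window held a CArG box, CCTTATTTGG, whose first base lay at -61, and a GATA site, GATAAG, at -41. The Myl4 window held no match to these letters. Among 32851 promoter windows of the same length the CArG box was present in 1.63%, the GATA site in 7.44%, the MEF2 site in 3.19% and the T-box half-site in 13.7%. A match is a description of the letters and not a bound site. The table of promoters gave a window for 2 of the 3 members, and Sln is named only.

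The deposited values were GCRMA intensities, and all levels below are log2 of them. Array medians lay between 4.22 and 4.48, and a level below that range is near the array's background, so that the size of a difference from it is not exact. Levels of different probe sets are not comparable with each other. Gapdh signal at the 3′ end minus that at the 5′ end, a sign of RNA quality, ranged from -0.28 to 0.73 in infarct and from -0.35 to 0.07 in noninfarct arrays, and its part in the results was not tested. Fewer cells of a type and less RNA per cell cannot be told apart in these bulk samples.

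A pair of day 5 libraries went against their labels. On 104 probe sets chosen because they separate the strains at days 0 and 1, the library labelled C57 day 5 noninfarct replicate 3 was nearer to the MRL mean in 72, against 3 to 25 in the other C57 day 5 arrays. The library labelled MRL day 5 infarct replicate 3 was nearer to the MRL mean in 7, against 69 to 98 in the other MRL day 5 arrays. On the first principal component of all arrays (52.7% of the variance) the former lay at 99.1, where the other day 5 noninfarct arrays spanned -30.2 to 42.8, and the latter at 11.0, where the other day 5 infarct arrays spanned 40.5 to 117.2. Neither library was moved to another group, and the day 5 comparisons below are given with and without this pair.

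**Figure D1:**
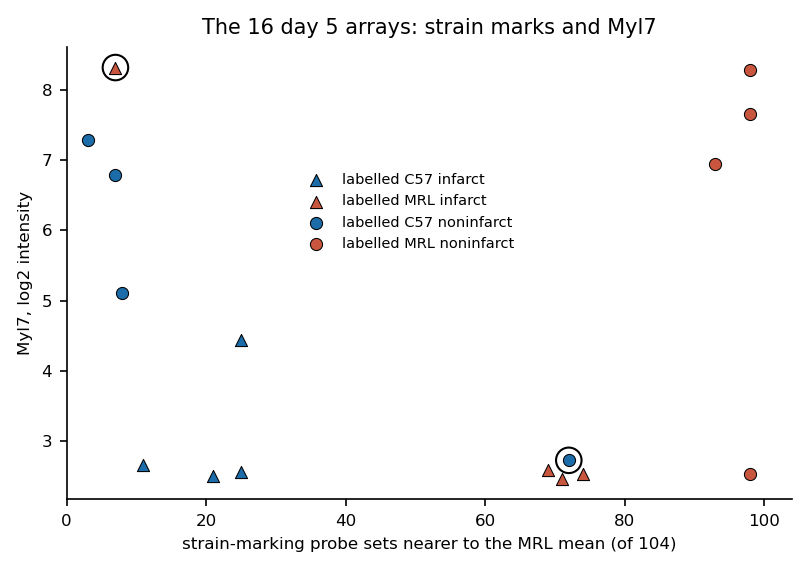
Each point is 1 of the 16 day 5 arrays; the x axis counts the strain-marking probe sets (of 104) nearer to the MRL mean, the y axis is the log2 intensity of Myl7, colour is the labelled strain and shape the labelled region. The ringed arrays, labelled MRL infarct (7 probe sets, Myl7 at 8.32) and C57 noninfarct (72 probe sets, Myl7 at 2.73), lie among arrays of the other strain and the other region.

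Myl7, the atrial regulatory light chain, was near background in infarct pieces and high in noninfarct pieces, already in hearts that had no surgery. In the C57 day 0 infarct region its level was 2.80, 2.67 and 2.65, and in the noninfarct region 7.93, 8.99 and 7.03. In MRL at day 0 the infarct arrays gave 2.64, 2.73, 2.70 and 2.72, and the noninfarct arrays 7.82, 8.37, 9.16 and 8.25. The groups were thus far apart, with the lowest noninfarct array at 7.03 and the highest infarct array at 2.80. The mean difference, noninfarct minus infarct, was 5.27 ± 1.14 (SE) in C57 and 5.70 ± 0.98 in MRL, a ratio of 38.7 and 51.9 on the intensity scale.

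One day after ligation the same order of regions held for Myl7. The C57 infarct arrays lay at 2.99, 2.64, 2.72 and 2.80, and the noninfarct arrays at 8.00, 6.21, 6.62 and 7.23, a difference of 4.23 ± 0.98. The MRL infarct arrays lay at 2.61, 2.72, 2.75 and 2.84, and the noninfarct arrays at 8.16, 9.02, 7.15 and 5.44, a difference of 4.71 ± 0.98. The groups did not overlap in either strain, but the MRL noninfarct arrays had a wide spread (SD 1.54, n = 4).

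By day 5 single arrays crossed between the regions. The C57 infarct arrays gave Myl7 levels of 2.66, 2.56, 4.43 and 2.50, and the noninfarct arrays 7.29, 5.11, 2.73 and 6.79, where 2.73 is the library labelled C57 day 5 noninfarct replicate 3. The MRL infarct arrays gave 2.47, 2.60, 8.32 and 2.54, where 8.32 is the library labelled MRL day 5 infarct replicate 3, and the noninfarct arrays 8.28, 6.94, 7.66 and 2.53. The groups overlapped in both strains, with differences of 2.44 ± 0.98 in C57 and 2.37 ± 0.98 in MRL. Without the pair the differences were 3.36 ± 0.78 and 3.82 ± 0.78, the C57 groups no longer overlapped, and the MRL groups still did. The MRL array at 2.53, noninfarct replicate 4, was not one of the pair: it lay at 22.2 on the first component and was nearer to the MRL mean in 98 of the 104 strain-marking probe sets.

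**Figure D2:**
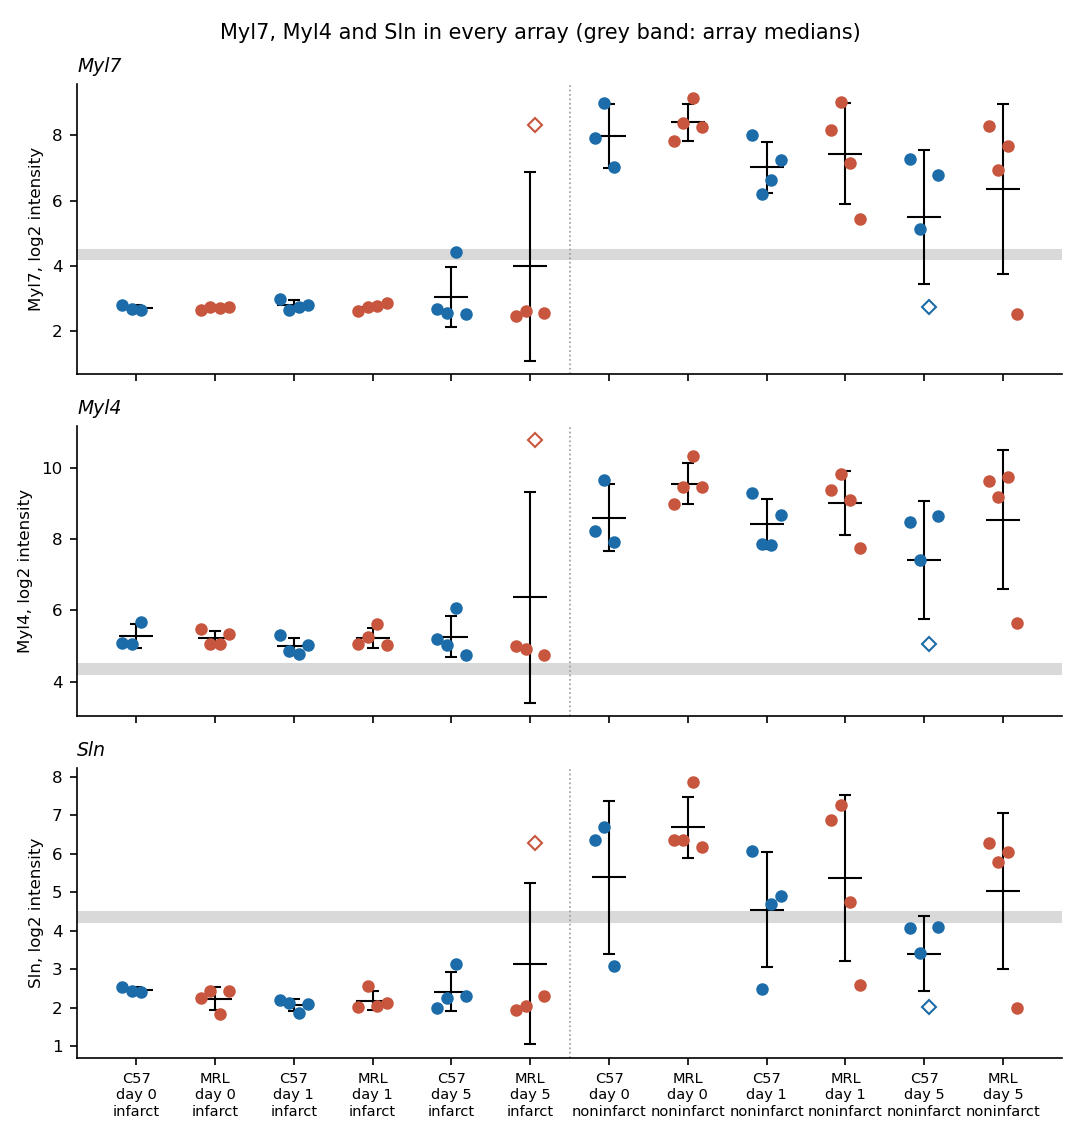
Log2 intensity of Myl7, Myl4 (its responsive probe set) and Sln (its responsive probe set) in each of the 46 arrays, by group; horizontal marks and bars are the mean ± SD, the grey band spans the array medians (4.22 to 4.48), and open diamonds are the pair of day 5 libraries at odds with their labels. At days 0 and 1 every noninfarct array lies above every infarct array of its strain and day in all 3 genes, and at day 5 single arrays lie at the other region's level.

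Myl4, the atrial essential light chain, had 2 probe sets that differed in behaviour. The first, 1422580_at, lay above the array median in all 46 arrays and followed region. At day 0 its C57 levels were 5.09, 5.06 and 5.67 in infarct and 8.22, 9.66 and 7.91 in noninfarct pieces, a difference of 3.32 ± 0.98. The MRL levels were 5.46, 5.06, 5.06 and 5.33 against 8.97, 9.45, 10.33 and 9.46, a difference of 4.33 ± 0.85. Since this probe set stayed above the array medians in infarct pieces too, its difference is less bound to the background than that of Myl7 or Sln.

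At day 1 the Myl4 groups were again apart in both strains. C57 arrays gave 5.29, 4.86, 4.78 and 5.04 in infarct and 9.28, 7.85, 7.84 and 8.68 in noninfarct pieces (difference 3.42 ± 0.85). MRL arrays gave 5.04, 5.24, 5.62 and 5.02 against 9.38, 9.83, 9.10 and 7.76 (difference 3.79 ± 0.85). The lowest noninfarct array of MRL, replicate 4, was the lowest for Myl7 as well.

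At day 5 the Myl4 levels of C57 were 5.18, 5.04, 6.08 and 4.73 in infarct and 8.47, 7.42, 5.06 and 8.65 in noninfarct pieces. Those of MRL were 4.99, 4.92, 10.79 and 4.75 against 9.63, 9.17, 9.75 and 5.63. The arrays out of place were those seen for Myl7, and the groups overlapped in both strains. The differences were 2.14 ± 0.85 in C57 and 2.18 ± 0.85 in MRL, and without the pair 2.92 ± 0.58 and 3.66 ± 0.58 with no overlap. The other Myl4 probe set, 1457126_at, stayed between 3.64 and 4.53 in all 46 arrays and above the array median in 3 of them, so it showed no such pattern.

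Sln, the sarcolipin gene, had the widest spread of the 3 in the noninfarct groups of days 0 and 1. Its responsive probe set, 1420884_at, read 2.54, 2.43 and 2.41 in C57 day 0 infarct pieces and 6.37, 6.70 and 3.09 in noninfarct pieces. In MRL at day 0 it read 2.25, 2.43, 1.82 and 2.44 against 6.36, 6.36, 7.88 and 6.18. The groups did not overlap, although 1 C57 noninfarct array lay below the array medians. The differences were 2.93 ± 1.04 in C57 and 4.46 ± 0.90 in MRL. Without that C57 array the C57 difference was 4.07.

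At day 1 the Sln levels were 2.20, 2.11, 1.85 and 2.08 in C57 infarct and 6.07, 2.49, 4.71 and 4.90 in C57 noninfarct pieces. In MRL they were 2.02, 2.56, 2.03 and 2.12 against 6.88, 7.27, 4.74 and 2.58. The groups touched without overlapping, since 1 noninfarct array in each strain sat at the infarct level. The differences were 2.48 ± 0.90 and 3.19 ± 0.90.

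At day 5 the C57 Sln levels were 1.98, 2.25, 3.13 and 2.30 in infarct and 4.08, 3.41, 2.02 and 4.10 in noninfarct pieces. The MRL levels were 1.94, 2.03, 6.29 and 2.31 against 6.29, 5.79, 6.05 and 2.00. Both strains' groups overlapped, with differences of 0.99 ± 0.90 in C57 and 1.89 ± 0.90 in MRL. Without the pair these were 1.45 ± 0.85 and 2.94 ± 0.85, and the MRL groups still overlapped. The other Sln probe set, 1420883_at, lay between 2.59 and 3.07 and below the array median in all 46 arrays.

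Across days and strains, 12 of 18 comparisons of region (3 responsive probe sets, 2 strains, 3 days) had groups that did not overlap, with noninfarct higher in all 18. Over the 13138 probe sets that could be tested, groups without overlap and with noninfarct higher made up 4.6%, 5.59% and 2.3% in C57 at days 0, 1 and 5, and 0.845%, 9.34% and 5.61% in MRL. The members were chosen on these contrasts, so nothing is read from that count. Of the 5 probe sets 4 passed the filter on low values in this fit; Myl7 and Sln passed it through the noninfarct arrays, Myl7 lying above the array median in 21 of 23 of them and in 2 of 23 infarct arrays, Sln in 15 and 1. Measured against the highest infarct array outside the pair (4.43 for Myl7, 6.08 for Myl4 and 3.13 for Sln), 21 of 23 noninfarct arrays lay above it for Myl7, 21 for Myl4 and 18 for Sln. These 23 arrays include the pair's library labelled noninfarct, which was among those not above it for each gene (2.73, 5.06 and 2.02).

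In the order of group means the 6 noninfarct groups stood above the 6 infarct groups for all 3 responsive probe sets, and MRL at day 0 led each order. For Myl7 the order ran MRL day 0 (8.40 ± 0.56, SD), C57 day 0 (7.98 ± 0.98), MRL day 1 (7.44 ± 1.54), C57 day 1 (7.01 ± 0.78), MRL day 5 (6.35 ± 2.61) and C57 day 5 (5.48 ± 2.06). For Myl4 it ran from 9.55 ± 0.57 in MRL day 0 to 7.40 ± 1.65 in C57 day 5, and for Sln from 6.70 ± 0.79 to 3.40 ± 0.98 in those groups. With all arrays every neighbouring pair in these orders overlapped, so no step between neighbours exceeded the spread of the arrays. Part of this rested on the day 5 libraries at odds with their labels. Without them the Myl7 mean of C57 day 5 noninfarct tissue was 6.40, just above MRL day 5. The lowest array of that C57 group was then at 7.42 for Myl4 and 3.41 for Sln. Those values lay above the highest infarct arrays, 6.08 and 3.13, so the step between regions had no overlap there.

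After infarction the mean level of each member in noninfarct tissue was below that of day 0 at both times and in both strains, and the groups overlapped in all 12 comparisons. The share of all probe sets with overlapping groups was not counted for day or strain comparisons, so nothing is read from such counts. Myl7 differed from day 0 by -0.97 ± 1.13 at day 1 and -2.50 ± 1.13 at day 5 in C57, and by -0.96 ± 1.05 and -2.05 ± 1.05 in MRL. Myl4 differed by -0.18 ± 0.87 and -1.20 ± 0.87 in C57, and by -0.54 ± 0.80 and -1.01 ± 0.80 in MRL. Sln differed by -0.84 ± 1.15 and -1.98 ± 1.15 in C57, and by -1.33 ± 1.06 and -1.67 ± 1.06 in MRL. Without the pair the C57 day 5 differences were -1.58 for Myl7, -0.42 for Myl4 and -1.52 for Sln; without MRL noninfarct replicate 4 the MRL ones were -0.77, -0.03 and -0.65. Single libraries thus carried much of the day 5 values.

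More probe sets were called at day 5 than at day 1. Of 12344 probe sets tested in noninfarct tissue, limma called 3.99% in C57 at day 1 and 21.1% at day 5, and 0.98% and 24.2% in MRL (adjusted p under 0.05, either direction). Without the pair these shares were 7.59% and 10.1% in C57 and 2.58% and 34.7% in MRL. Nppa, which encodes atrial natriuretic peptide and is both an atrial gene and a stress gene of the ventricle, rose in noninfarct tissue at day 5, with a change of 2.36 for C57 (limma adjusted p = 0.00604) and 2.30 for MRL (adjusted p = 0.00226), while the member means were below those of day 0. In C57 noninfarct tissue it read 11.30, 11.55 and 10.68 at day 0 and 11.41, 14.26, 14.64 and 13.81 at day 5. In MRL it read 12.08, 12.42, 12.32 and 12.20 at day 0 and 14.61, 14.73, 14.53 and 14.34 at day 5. The MRL groups were apart, and 1 C57 day 5 array lay within the day 0 range. Without the pair the C57 change was 1.99 (adjusted p = 0.0216). At day 1 its change of 1.24 in C57 and 1.51 in MRL did not pass (adjusted p = 0.211 and 0.165).

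In infarct tissue the members lay low from the start. Of their 5 probe sets only the responsive Myl4 probe set passed the filter there. With all arrays, groups overlapped in 11 of 12 day comparisons, a count again given without a share over all probe sets and not read. The exception was Sln in C57 at day 1, with a difference of -0.40 from day 0 and all levels far below the array medians. Without the pair the MRL day 5 groups of Myl7 and Myl4 also lay apart from day 0, with differences of -0.17 and -0.34. Myl4 differed from day 0 by -0.28 ± 0.89 at day 1 and -0.02 ± 0.89 at day 5 in C57, and by 0.00 ± 0.83 and 1.14 ± 0.83 in MRL, the last being -0.34 without the pair. Limma called 15.5% and 42.7% of 12834 probe sets in C57 infarct tissue at days 1 and 5, and 21.5% and 46.9% in MRL (20.8%, 45.7%, 27.4% and 52.6% without the pair).

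Genes of the ventricular counterparts moved in that tissue. Myl2, the ventricular regulatory light chain, differed from day 0 by -1.25 in C57 infarct tissue at day 5 and by -1.35 in MRL (both called lower, limma adjusted p = 0.00501 and 0.00129). Pln fell by 2.00 in C57 and differed by -1.68 in MRL (both called lower, adjusted p = 0.00415 and 0.00674), and Atp2a2, the pump that sarcolipin and phospholamban bind, by -0.77 and -0.76 (both called lower, adjusted p = 0.0216 and 0.0129). Nppa rose there at day 1, 1.35 in C57 and 1.74 in MRL (adjusted p = 0.0452 and 0.00608), and at day 5 by 2.43 and 2.31 (adjusted p = 0.000343 and 0.000184). The C57 day 1 call of Nppa was lost with no filter (adjusted p = 0.088), with centred arrays (adjusted p = 0.0584) and without any of the 3 day 0 arrays or day 1 replicate 3 or 4 (up to 0.185). Without the pair the MRL day 5 changes were -1.78 for Myl2, -2.09 for Pln, -0.99 for Atp2a2 and 2.4 for Nppa, and all stayed called. The Atp2a2 call was lost in C57 without day 0 replicate 1 or 3 or day 5 replicate 2 or 4 (adjusted p up to 0.0784) and with quantile normalization (-0.57, adjusted p = 0.0636), and in MRL without day 5 replicate 2 (0.0683). In noninfarct tissue at day 5 Pln fell by 0.77 for C57 (adjusted p = 0.0443), a call lost without the pair (-0.38, adjusted p = 0.102), with no filter (adjusted p = 0.08), with all 46 arrays in 1 fit (adjusted p = 0.226) and without any day 0 array or day 5 replicate 2 or 3 (up to 0.114). For MRL it differed by -0.52 (adjusted p = 0.118), called lower only without the pair (adjusted p = 0.00353). Myl2 in MRL noninfarct tissue at day 5 differed by -0.32 (adjusted p = 0.198) and was called lower without the pair (adjusted p = 0.029). In C57 infarct tissue at day 1 Pln differed by -1.32 (adjusted p = 0.0854). It was called lower there without the pair (adjusted p = 0.0478) and with all 46 arrays in 1 fit (adjusted p = 0.0206).

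MRL noninfarct tissue had the higher mean of every member on every day, and the groups overlapped in all 9 comparisons. This count too has no share over all probe sets beside it, and nothing is read from it. For Myl7 the MRL minus C57 difference was 0.42 ± 1.13, 0.43 ± 1.05 and 0.87 ± 1.05 at days 0, 1 and 5. For Myl4 it was 0.96 ± 0.87, 0.60 ± 0.80 and 1.15 ± 0.80, and for Sln 1.31 ± 1.15, 0.83 ± 1.06 and 1.63 ± 1.06. At day 5 the values without the pair were -0.05 for Myl7, 0.37 for Myl4 and 1.17 for Sln, and without MRL noninfarct replicate 4 they were 2.15, 2.12 and 2.64. The day 5 strain differences thus depended on which single library was left out. In infarct tissue the differences of the 3 genes at days 0 and 1 lay between -0.23 and 0.24. At day 5 they were 0.94 for Myl7, 1.11 for Myl4 and 0.73 for Sln with overlapping groups, and without the pair they turned to -0.50, -0.37 and -0.32. Limma called 1.8%, 2.77% and 1.25% of probe sets between the strains in noninfarct tissue at days 0, 1 and 5, and 1.07%, 0.997% and 0.686% in infarct tissue. Without the pair these shares were 3%, 5.14% and 3.83%, and 1.46%, 1.43% and 2.42%. Nppa, Myl2, Pln and Atp2a2 were called in none of these 6 strain comparisons, the lowest adjusted p being 0.179, for Nppa.

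Some genes of a skeletal muscle list stood higher in MRL. Of its 17 genes 4 were tested. Among these Myh8, a developmental heavy chain, was called between the strains in noninfarct tissue on no day (-0.14, 0.04 and -0.30 at days 0, 1 and 5). The others, 3 genes, were called higher in MRL noninfarct tissue at day 0 and at day 1. Acta1, the skeletal alpha actin that heart muscle also makes, differed by 1.75 and 2.24 on these days (limma adjusted p = 0.00988 and 0.000327), Myl1, a skeletal essential light chain, by 1.29 and 1.51 (adjusted p = 3e-04 and 2.04e-05), and Casq1, a calsequestrin, by 2.04 and 2.47 (adjusted p = 8.68e-05 and 3.67e-06). At day 5 Myl1 (1.12, adjusted p = 0.00108) and Casq1 (2.26, adjusted p = 2.21e-05) were called and Acta1 (1.35, adjusted p = 0.0504) was not. Without the pair all 3 were called, Myl1 at 1.23, Casq1 at 2.2 and Acta1 at 1.80 (adjusted p = 9.47e-05 for Acta1). The day 0 call of Acta1 was lost without C57 noninfarct replicate 1 (adjusted p = 0.0815). The other calls made with all arrays for these genes in noninfarct tissue held when any 1 array was left out. In infarct tissue 3 were called higher in MRL at day 0, 2 at day 1 and 0 at day 5. Without the pair Acta1 was called higher in infarct tissue at day 5 as well (1.40, adjusted p = 0.0162). There the day 0 call of Myl1 (1.57, adjusted p = 0.0363) was lost with no filter (0.0749), with quantile normalization (0.0585) and without any of 6 arrays (up to 0.238).

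The summed intensity of all 17 skeletal muscle genes in noninfarct tissue ran from 2085 to 3237 in C57 and from 7348 to 8604 in MRL at day 0, from 2460 to 3169 and from 10298 to 15574.5 at day 1, and from 2778 to 13838 and from 13446 to 15861 at day 5. The strains were apart in this sum at days 0 and 1. At day 5 they overlapped, but with the pair included, and the sum is not given here without it. This sum was largely that of Acta1, whose log2 level in noninfarct arrays ran from 10.57 to 13.80. Myl1 was next, from 8.39 to 10.70, and 13 of the 17 genes lay above the array median in no array. Other genes of atrial muscle, 14 without Nppa, summed to 2158 to 2201 in C57 and 2705 to 3246 in MRL at day 0, to 1382 to 1680 and 2442 to 3083 at day 1, and to 1531 to 1825 and 2802 to 3183 at day 5, with the strains apart on each day. Of these 14, Kcnk3 and Pam reached the highest log2 levels, 10.80 and 10.88, and a linear sum gives such genes the most weight. The part of the cells of these lists in the members' strain differences was not tested.

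Few probe sets were called between the regions of unoperated hearts. Limma called 0% of 13138 probe sets in C57 at day 0 (0 called, 198 at an unadjusted p under 0.05) and 0.0304% in MRL (4 called, members counted). The members were chosen on this contrast, so nothing is read from their own place among the calls. After ligation the share called was 7.31% and 8.53% in C57 at days 1 and 5, and 9.28% and 14% in MRL. These shares rested on the pair at both times, since all 46 arrays share 1 estimate of the spread: without it they were 13.9% and 32.5% in C57 and 16.5% and 35.3% in MRL, with 0.0152% and 0.0305% at day 0.

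Other genes of atrial muscle did not follow the members at day 0. Of a list of 19 such genes 15 were on the array and 11 passed the filter, and 0 were called in either strain at day 0, with a median difference of 0.08 in C57 and 0.00 in MRL against 0.02 and -0.01 over all tested probe sets. Nppa differed by -0.60 in C57 and 0.00 in MRL. Dkk3, a secreted glycoprotein, gave 0.80 ± 0.36 and 0.72 ± 0.31, the largest of the list in each strain, and neither passed (adjusted p = 1 in both). Bmp10, a growth factor made by atrial muscle, stayed between 1.98 and 2.31 in all 46 arrays, and Gja5, the connexin of atrial and conduction cells, between 2.71 and 3.28. Neither of them, nor Hey1, lay above the array median in any array.

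The summed intensity of these 15 genes was largely that of Nppa, which made up 42.7% to 96.7% of it by array (median 85.6%). At day 0 it ran in noninfarct tissue from 3839 to 5156 against 4959 to 6566 in C57 infarct tissue, and from 7031 to 8495 against 7331 to 8945 in MRL. At day 1 it ran from 5334 to 12775 against 5986 to 18878 in C57, and from 11012 to 25761 against 7127 to 26588 in MRL. At day 5 it ran from 4548 to 27402 against 16026 to 24153 in C57, and from 23682 to 30379 against 22275 to 29179 in MRL. Regions overlapped in this sum on every day. The sum of the other 14 genes overlapped at day 0 only. It ran then from 2158 to 2201 in noninfarct against 1729 to 2509 in infarct tissue of C57, and from 2705 to 3246 against 2830 to 3371 in MRL. At day 1 it ran from 1382 to 1680 against 648 to 1131 in C57 and from 2442 to 3083 against 1172 to 2263 in MRL. At day 5 it ran from 1531 to 1825 against 749 to 1293 in C57 and from 2802 to 3183 against 1269 to 1851 in MRL. After ligation the noninfarct arrays thus lay above the infarct arrays in the 14-gene sum, and in unoperated hearts they did not. Of the 14 genes, Kcnk3 and Pam reached the highest log2 levels, 10.80 and 10.88, against 7.96 for Kcna5, the next. A linear sum gives such genes the most weight. The part of atrial tissue in the members' levels was not tested.

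**Figure D3:**
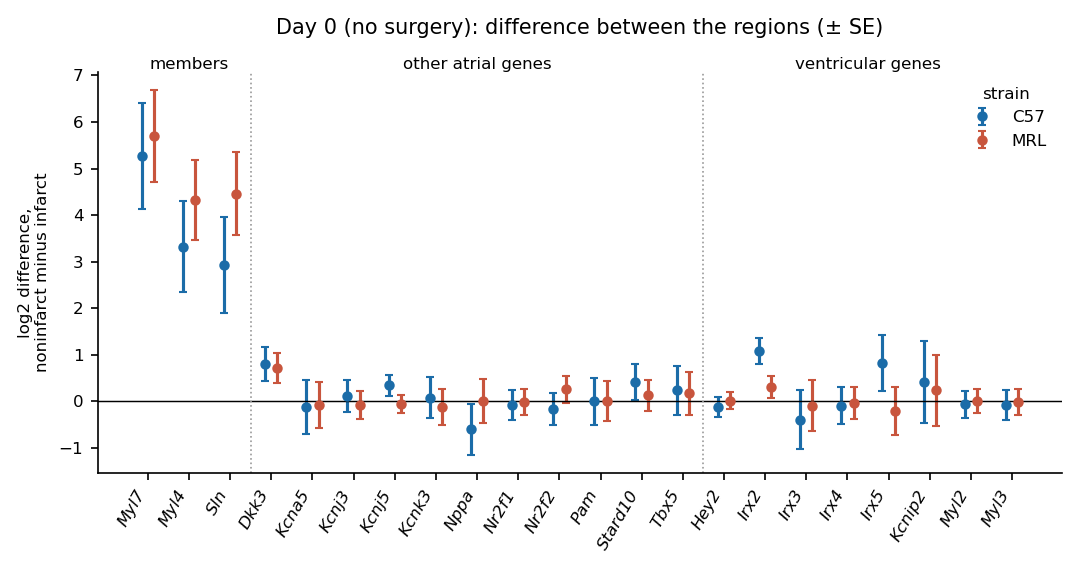
Day 0 difference between regions (log2, noninfarct minus infarct, ± SE of the limma fit) for the 3 members, the 11 other atrial genes and the 8 ventricular genes that passed the filter, in C57 (blue) and MRL (red). The members lie between 2.93 and 5.70, whereas Dkk3, the largest of the other atrial genes, lies at 0.80 and 0.72.

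After ligation some atrial genes were higher in noninfarct tissue. At day 1 limma called 1 of 11 in C57, Kcnk3 (1.39 ± 0.38, adjusted p = 0.0214), which encodes a background potassium channel, and 2 of 11 in MRL, Dkk3 (1.21 ± 0.31, adjusted p = 0.0157) and Kcnj5 (0.64 ± 0.20, adjusted p = 0.0366), a potassium channel subunit opened by acetylcholine signalling. At day 5 it called 0 of 11 in C57 and 2 of 11 in MRL, Kcnk3 (1.34 ± 0.38, adjusted p = 0.0184) and Pam (1.82 ± 0.43, adjusted p = 0.00821), which amidates peptides in atrial granules. With all arrays none was called lower. The list's median difference was 0.43 and 0.51 in C57 and 0.64 and 0.49 in MRL at days 1 and 5. Without the pair 2 were called higher in C57 and 4 in MRL at day 1, and 2 in C57 and 5 in MRL at day 5. In MRL at day 5 another was then called lower, Nr2f2 (-0.88, adjusted p = 0.0151), a transcription factor of atrial muscle. The MRL day 5 values without the pair were 1.85 for Kcnk3 and 1.23 for Pam, both called. At day 0 Kcnk3 differed by 0.08 in C57 and -0.12 in MRL, and neither passed (adjusted p = 1 in both). Pam kept its call when any 1 array was left out. The C57 call of Kcnk3 was lost without infarct replicate 3 or 4 or noninfarct replicate 1 (adjusted p up to 0.136), and that of Dkk3 without MRL noninfarct replicate 1 (0.108). The call of Kcnj5 was lost without any of 5 arrays (MRL day 1 infarct replicates 2, 3 and 4, noninfarct replicates 1 and 2, up to 0.229), with no filter (0.0517) and with an offset of 32 before log2 (0.1). The MRL day 5 call of Kcnk3 was lost without infarct replicate 1, 2 or 4 or noninfarct replicate 3 or 4 (up to 0.109).

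Genes of ventricular muscle were called lower in noninfarct than in infarct tissue on no day, with or without the pair. Of 8 tested, 0 were called at day 0 in either strain. At day 1 Irx2, a homeobox gene, was higher in noninfarct tissue of C57 (1.40 ± 0.24, adjusted p = 0.000375). The Irx2 probe set lay near background, between 2.15 and 4.90, and above the array median in 5 of 46 arrays. At day 5 Irx4 (1.13, adjusted p = 0.0384) and Kcnip2 (2.48, adjusted p = 0.0403) were higher in C57, and Kcnip2 (3.09, adjusted p = 0.00955), Irx4 (1.50, adjusted p = 0.00672), Myl3 (1.24, adjusted p = 0.00632) and Myl2 (1.04, adjusted p = 0.00914) in MRL. Irx4 is a ventricular homeobox gene and Kcnip2 a partner of a repolarising potassium channel. The list's median difference was -0.07 and -0.01 at day 0 in C57 and MRL, and 0.70 and 0.97 at day 5. Without the pair 5 were called higher in C57 and 6 in MRL at day 5, and 1 and 2 at day 1. The day 5 values were then 1.47 for Irx4 and 2.82 for Kcnip2 in C57, and 3.71 for Kcnip2, 1.95 for Irx4, 1.71 for Myl3 and 1.47 for Myl2 in MRL, all called. The C57 day 5 calls were lost with no filter (adjusted p = 0.0641 for Irx4 and 0.0703 for Kcnip2), that of Kcnip2 with the offset of 32 (0.0871), and both without any of 6 arrays (infarct replicates 2, 3 and 4, noninfarct replicates 1, 2 and 4; adjusted p up to 0.275), and the MRL calls without infarct replicate 2 (up to 0.0792), that of Myl2 also without infarct replicate 1.

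Among 10 tested genes of the myosin light chain family and its partners, 0 were called at days 0 and 1 in either strain. At day 5 Myl6, a light chain of nonmuscle and smooth muscle, was lower in noninfarct tissue of C57 (-0.66, adjusted p = 0.038) and MRL (-0.75, adjusted p = 0.0138), and Myl3, Myl2 and Myh6 (0.97, adjusted p = 0.0184), the alpha heavy chain, were higher in MRL. The Myl6 probe set lay near background, between 3.16 and 5.14, and above the array median in 16 of 46 arrays. Without the pair 3 were called higher and 4 lower in C57 at day 5, and 4 and 3 in MRL; at day 1 Myl9 was then called higher (1.26, adjusted p = 0.0135) and Myl12a lower (-0.33, adjusted p = 0.0456) in C57. Myl6 was then at -0.71 in C57 and -0.75 in MRL and Myh6 at 1.36 in MRL, all called at day 5. The C57 call of Myl6 was lost with no filter (adjusted p = 0.0553), quantile normalization (0.0608) or centred arrays (0.0517), and without any of 6 arrays (infarct replicates 2, 3 and 4, noninfarct replicates 1, 2 and 4; adjusted p up to 0.209). In MRL that of Myl6 was lost without infarct replicate 2 or 4 or noninfarct replicate 4 (up to 0.0609), and that of Myh6 without infarct replicate 1, 2 or 4 (up to 0.161).

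Of 10 tested genes of the calcium pump and its regulators, 0 were called at day 0 in either strain and 0 at day 1 in C57. At day 1 in MRL 3 were higher in noninfarct tissue, Slc8a1 (1.59, adjusted p = 0.0174), the sodium-calcium exchanger, Casq1 (1.09, adjusted p = 0.0152) and S100a1 (1.02, adjusted p = 0.0371). At day 5 2 were higher in C57, Hrc (1.98, adjusted p = 0.0461) and Casq1 (0.90, adjusted p = 0.043), and 7 in MRL, led by Hrc (2.47, adjusted p = 0.0115), Casq1 (1.96, adjusted p = 7.29e-05), Casq2 (1.34, adjusted p = 0.0155) and Ryr2 (1.30, adjusted p = 0.0186). Hrc, Casq1 and Casq2 bind calcium in the sarcoplasmic reticulum, and Ryr2 releases it. Pln was among the 7 (1.12, adjusted p = 0.0498), a call lost with no filter (adjusted p = 0.0832) and with quantile normalization (adjusted p = 0.0546). With no filter the calls of Hrc (0.0804) and Casq1 (0.0688) in C57, of S100a1 at day 1 in MRL (0.062) and of Slc8a1 at day 5 in MRL (0.0792) were lost too, and that of Casq1 in C57 with the offset of 32 (0.107). Without the pair 8 were called higher and 1 lower in each strain at day 5, and 2 higher in C57 and 3 in MRL at day 1. The day 5 values were then 2.68 for Hrc and 0.97 for Casq1 in C57, and 3.26 for Hrc, 2.27 for Casq1, 1.83 for Casq2, 1.76 for Ryr2 and 1.53 for Pln in MRL, all called. Casq1 in MRL at day 5 kept its call when any 1 array was left out. Each other call of these genes was lost without at least 1 array, most often without infarct replicate 2 of the strain and day, with adjusted p up to 0.312 for Hrc in C57 and 0.225 for Pln in MRL. Pln differed by -0.10 and -0.04 and Atp2a2 by -0.05 and 0.00 at day 0 in C57 and MRL, where Sln differed by 2.93 and 4.46.

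Skeletal muscle also makes sarcolipin. Of its 17 marker genes on the array 13 were above the array median in no array, among them Myh4, Myod1 and Pvalb. Acta1 and Myl1 were above it in all 46 arrays, Casq1 in 39 and Myh8, a developmental heavy chain, in 25. Of these 4, the genes tested, Casq1 alone was called between regions with all arrays, and without the pair Myl1 also was in MRL at day 5 (0.77, adjusted p = 0.0445).

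Lists for the conduction system (3 genes tested), epicardium and mesothelium (4), adipose tissue (2), valve and tendon matrix (5), smooth muscle (5) and nerve (3) had 0 called genes at day 0 in both strains, with and without the pair. At day 1 single genes of them were higher in noninfarct tissue. Cidea, a protein of fat droplets, differed by 1.42 in C57 and in MRL (adjusted p = 0.0249 and 0.0237), Comp, a matrix protein of tendon and cartilage, by 1.03 and 1.14 (adjusted p = 0.0221 and 0.012), and Myh11, the smooth muscle heavy chain, by 1.32 and 0.94 (adjusted p = 0.00738 and 0.0472). Aldh1a2, which makes retinoic acid, was lower in C57 (-2.21, adjusted p = 0.025). At day 5 the smooth muscle genes Acta2 (-1.14 in C57, -1.22 in MRL, adjusted p = 0.0104 and 0.00536) and Tagln (-1.50 and -1.29, adjusted p = 0.0318 and 0.0401) were lower in noninfarct tissue, as were Comp in both strains (-1.63 and -1.08, adjusted p = 0.00051 and 0.013) and Krt18, a keratin, in C57 (-1.38, adjusted p = 0.0247). In MRL Cidea (1.35, adjusted p = 0.0222), Npr3 (0.64, adjusted p = 0.0169), a natriuretic peptide receptor, and Stmn2 (1.12, adjusted p = 0.0118), a tubulin-binding protein of neurons, were higher. These lists thus held genes of both directions after ligation.

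All of these calls held without the pair, where the day 5 values were -1.39 and -1.61 for Acta2, -2.02 and -1.75 for Tagln, -1.64 and -0.92 for Comp, -1.75 for Krt18, 1.96 for Cidea, 0.67 for Npr3 and 1.01 for Stmn2. When 1 array at a time was left out, the calls of Acta2 in MRL and of Comp in C57 at day 5 held, and each other call was lost without at least 1 array (adjusted p up to 0.275, for Tagln in C57). The Comp calls of day 1 were lost with the offset of 32 (adjusted p = 0.242 and 0.161), the Tagln calls with no filter (0.0547 and 0.0685), and the MRL call of Myh11 with no filter (0.0802) or quantile normalization (0.0706). The part of these cell types in the members' levels was not tested.

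Across all 46 arrays the members were more like each other than like any other gene ranked. Pearson's r was 0.98 between Myl7 and Myl4, 0.94 between Myl7 and Sln and 0.93 between Myl4 and Sln, on log2 values that share the contrast of region. The ranking held 11904 probe sets of single-symbol genes that passed the filter, with clone-like symbols left out. The 5 most like Myl7 were Gstz1 (r = 0.63), Vps35, Ndufaf5, Bcat2 and Klhl24 (0.61). Those most like Myl4 were Slc8a1 (0.65), Cidea, Arl2bp, Mpi and Ndufaf5 (0.64), and those most like Sln were Oip5os1 (0.58), Pde3a, Vps35, Twsg1 and Hspa4l (0.57). Every other gene ranked stood below the members' own r. The members were chosen with their values over region, day and strain known, and the ranked genes were not. Their place above the ranked genes was thus largely set by that choice, and nothing is read from it.

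**Figure D4:**
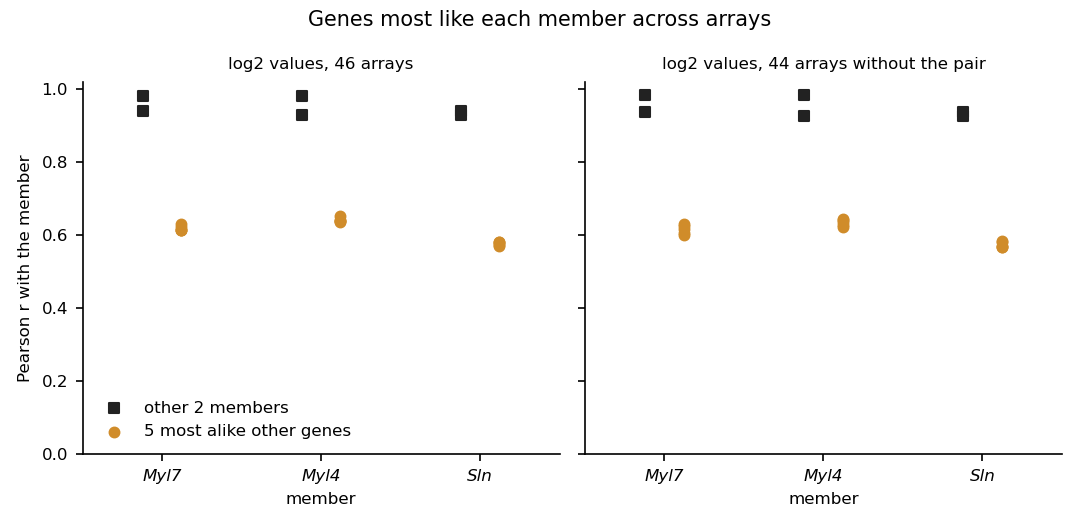
Pearson's r of each member with the other 2 members (black squares) and with the 5 most alike other genes (orange), over 46 arrays (left) and over 44 arrays without the pair (right). The members' own values lie at 0.93 or above in the left panel, and the highest other gene ranked lies at 0.65. The members were chosen with their region pattern known, so this gap is a description.

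Within noninfarct tissue the members still varied together. Over its 23 arrays Myl7 and Myl4 had r = 0.95 and Spearman's rho = 0.90, Myl7 and Sln 0.88 and 0.92, and Myl4 and Sln 0.87 and 0.84, with r of 0.87, 0.89 and 0.86 once the 2 arrays farthest from the median were left out. With group means removed r was 0.98, 0.87 and 0.82, and without the pair 0.97, 0.88 and 0.85. Arrays high in 1 member were therefore high in the others within a group too. In the 22 infarct arrays outside the pair r was 0.69, 0.67 and 0.56, and fell to 0.32, 0.13 and 0.14 without the 2 farthest, so it rested on those arrays. With group means removed and the pair left out, the 11 other atrial genes tested had r with Myl7 from -0.18 (Nr2f1) to 0.35 (Stard10), with a median of 0.06 over 22 noninfarct arrays; Dkk3 was at 0.17 and Nppa at -0.08. These values lay below the members' own.

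**Figure D5:**
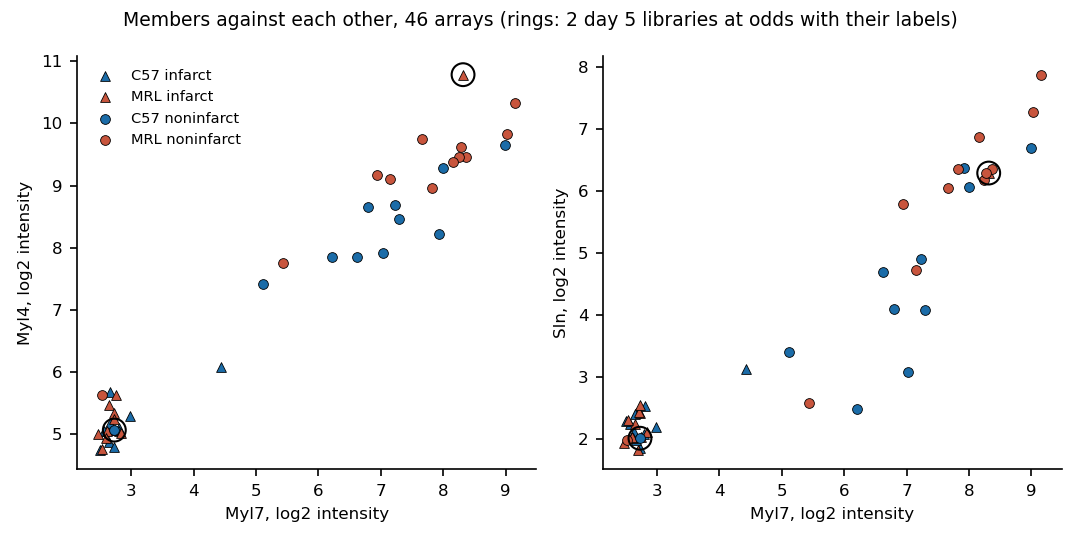
Log2 intensity of Myl4 (left) and Sln (right) against Myl7 in 46 arrays; triangles are infarct and circles noninfarct arrays, blue C57 and red MRL, and rings mark the pair of day 5 libraries. Infarct arrays gather at the lower left and noninfarct arrays spread along a line to Myl7 levels of 9.16, with Sln at its infarct level in arrays where Myl7 is at 6.21 or 5.44.

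In some noninfarct arrays Sln stayed near its infarct level while the light chains were raised. In C57 day 1 noninfarct replicate 2 Myl7 was at 6.21 and Myl4 at 7.85 while Sln was at 2.49, and in MRL day 1 noninfarct replicate 4 they were at 5.44, 7.76 and 2.58. In C57 day 0 noninfarct replicate 3 Sln was at 3.09 with Myl7 at 7.03. These Sln values lay below the array medians, where log2 levels have little resolution.

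On deviations from group means over 46 arrays the genes most like the members were H2-D1 for Myl7 (r = 0.67) and Myl4 (0.73) and Cnot7 for Sln (0.56). The next were Adi1, Mrpl50, Rpgrip1 and Cnot7 for Myl7, Rpgrip1, Ndufb10, Nudt19 and Adi1 for Myl4, and Sorcs2, Adi1, She and Mapre1 for Sln. This order rested on the pair: over the 44 other arrays the leading genes were Rin2 for Myl7 (0.57) and Myl4 (0.60) and She for Sln (0.56). Genes named here were ranked over 11904 probe sets in arrays that share region and library, and the values describe these arrays.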

How the data were processed

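RNA of 46 left ventricle pieces was hybridized to Affymetrix MOE430A arrays. The authors deposited 1 intensity per probe set and array, linear in scale; GCRMA made them, per the submitters' processing notes, and its version is not given in the sources used here. Log2 was taken with no pseudocount. Of 22626 probe sets 20380 had 1 gene symbol, for 12393 genes, 691 had several and 1555 none. Groups come from the labels. Region differences were fitted on 46 arrays and day and strain differences on the 23 arrays of a region, in 20 comparisons, with limma 3.58.1 in R 4.3.3 (lmFit, eBayes, two-sided, Benjamini-Hochberg; a gene is called at an adjusted p under 0.05), tested on simulated data. Probe sets had to exceed their array's median in 3 or more of the arrays fitted; a gene's probe set with the highest mean represents it, and every probe set represents a member. Genes were named as the members, 5 index genes, up to 4 called genes per list with the largest changes, and the 5 genes most like each member. The members and lists were chosen with earlier results of these data known. P-values measure the spread between these arrays, whose number limits the precision. Comparisons with shared groups share their chance deviations. Region fits took pieces of the same heart as independent arrays. Alternatives were no filter, quantile normalization, centring, an offset of 32 before log2, the replicate number as a block, 1 fit of 46 arrays, and leaving out libraries; leaving out the pair alone, and summing the atrial genes without Nppa, were chosen after seeing the data.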

Additional observations from a re-analysis of the deposited data

Results flagged for a closer look

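In groups of 4 arrays a single array can stand far from the rest by Dixon's criterion (its gap to the next array as a share of the group's range). Of 30 group and gene combinations, 7 had such an array. The criterion flags about 5% of independent groups by chance. These combinations are not independent, so the count is not read against that share. The library labelled MRL day 5 infarct replicate 3 stood above its group in Myl7 (8.32), Myl4 (10.79) and Sln (6.29). MRL day 5 noninfarct replicate 4 stood below its group in Myl4 (5.63) and Sln (2.00). C57 day 5 infarct replicate 3 stood above its group in Myl7 (4.43), and MRL day 0 noninfarct replicate 3 stood above its group in Sln (7.88). The arrays of a gene's groups are shared with the other 2 genes, and 2 of the arrays were apart in more than 1 gene.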

How the results depend on the processing

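No difference between regions of the 3 members changed direction under any alternative run. With an offset of 32 before log2, which damps levels near background, the day 0 and day 1 differences between regions were 2.91 and 2.08 (C57) and 3.27 and 2.5 (MRL) for Myl7, 2.57 and 2.55, and 3.5 and 2.99, for Myl4, and 1.19 and 0.74, and 1.91 and 1.28, for Sln. Leaving out 1 array at a time moved the day 0 differences from 4.77 to 5.75 (C57) and 5.45 to 5.89 (MRL) for Myl7, and the day 5 differences from 1.84 to 3.36 and from 1.73 to 3.82, with the highest values without the pair's arrays. The count of other atrial genes called higher in noninfarct tissue was 1 at C57 day 1 and 2 under quantile normalization or centring or without the pair. At C57 day 5 it was 0, and 3 without the 3 libraries that stood apart (the pair and C57 day 5 infarct replicate 1) and 2 without the pair. At MRL day 1 it was 2, 1 with no filter or with the offset, and 4 without the pair; at MRL day 5 it was 2, and 6 without the 3 libraries and 5 without the pair. Leaving out 1 array gave 0 to 3 at C57 day 1, 0 to 2 at C57 day 5, 0 to 3 at MRL day 1 and 1 to 5 at MRL day 5. The other counts, those of day 0, stayed at 0. With the replicate number as a block the count was 2 at C57 day 1 and 1 at C57 day 5. The numbers were not shown to pair hearts. Of 23 same-numbered pairs, 16 had correlated deviations above 0.1 and 13 correlated best with their own number, and 2 groups had every pair above 0.1. In C57 day 1 the same-number correlations ran from -0.46 to 0.15, each below that with another number. The block count there is therefore not read.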
